A study of Mus musculus with 6 samples.

Results

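Long non-coding RNAs (lncRNAs) that lay far from every protein-coding gene listed in the same table were examined in 6 mouse hearts. They are the lncRNAs carrying a provisional Gm name or a Rik clone name whose interval had no listed mRNA within 50 kb on either strand. The rule found 2962 of the 8133 Gm and Rik lncRNAs with coordinates, and the table held 9413 lncRNAs in all, 798 of them without coordinates. Of the members, 2375 had a Gm name and 587 a Rik name, and 2 were listed at 2 places and counted once. The other Gm and Rik lncRNAs had a listed mRNA within 50 kb without overlap (2494) or overlapped one (2671). Hearts of male mice were perfused outside the body with the Langendorff system. In 3 Sham hearts the beat was not stopped. In 3 hearts with ischaemia and reperfusion (I/R), the Tomas cardioplegia solution arrested contraction for 30 min and reperfusion for 1 h came next. Both groups share the isolated perfusion, so no heart here was left unperfused. The labels call the hearts of a group biological replicates and give no age or strain.

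LncRNAs are RNA polymerase II transcripts that code for no known protein. Some lie alone between genes, some run antisense to a coding gene or start divergently from its promoter, and some serve as host transcripts from which microRNAs are cut. In the heart, lncRNAs are known for roles in chromatin control and in binding proteins or microRNAs, and most have no known function.

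Sequences from some of these loci come first, as examples. The first 3 are promoter windows, 250 bases before to 50 bases after the RefSeq start (GRCm38.p6, printed 5′ to 3′ on the gene's own strand). They belong to 2210408F21Rik (chr6:31220101-31220400, plus strand), an abundant member far from any coding gene, to Gm14808 (chrX:99458751-99459050, plus strand), read only in I/R hearts, and to Gm35041 (chr12:76972235-76972534, plus strand), lower in I/R hearts. Capitals mark a GGGCGG match, the core of a GC box. The 3 were taken after their values were seen, from members lying over 1000 bases from a RefSeq coding gene.
2210408F21Rik: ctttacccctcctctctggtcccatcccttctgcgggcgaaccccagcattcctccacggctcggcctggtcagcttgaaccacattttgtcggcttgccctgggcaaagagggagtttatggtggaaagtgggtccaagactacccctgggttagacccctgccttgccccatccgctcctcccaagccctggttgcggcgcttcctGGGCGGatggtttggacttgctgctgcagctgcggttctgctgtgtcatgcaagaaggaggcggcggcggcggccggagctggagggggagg
Gm14808: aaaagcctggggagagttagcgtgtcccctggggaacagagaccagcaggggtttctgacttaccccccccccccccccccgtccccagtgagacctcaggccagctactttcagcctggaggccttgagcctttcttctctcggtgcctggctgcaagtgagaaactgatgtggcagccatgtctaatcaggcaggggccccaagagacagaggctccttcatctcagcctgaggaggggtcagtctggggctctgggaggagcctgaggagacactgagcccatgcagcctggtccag
Gm35041: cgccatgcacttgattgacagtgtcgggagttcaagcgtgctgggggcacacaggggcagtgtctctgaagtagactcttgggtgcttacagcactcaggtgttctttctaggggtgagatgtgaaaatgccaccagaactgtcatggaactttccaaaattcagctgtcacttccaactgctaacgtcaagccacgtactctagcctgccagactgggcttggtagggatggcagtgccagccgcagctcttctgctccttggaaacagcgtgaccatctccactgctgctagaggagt
The TATA box letters TATAAA, the CAAT box letters CCAAT and the GC box letters GGGCGG were searched on both strands. No motif contains another, though matches on opposite strands may share bases. The window of 2210408F21Rik held 1 GGGCGG, 63.3% GC and 15 CpG. No match lay in the windows of Gm14808 (61.7% GC, 3 CpG) and Gm35041 (53.7% GC, 7 CpG). Among all 32851 promoter windows of that length, 13.6% held TATAAA, 37.4% CCAAT and 35.7% GGGCGG, and the median was 52.7% GC and 7 CpG. Only 906 of the 2962 members (30.6%) had a promoter entry, below the 80% set as a minimum, so a comparison of base composition over the whole set is void.

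The second kind of sequence is the mature microRNA cut from a hairpin inside or beside a member. In capitals is the seed, bases 2 to 8, which pairs with target mRNAs. A hairpin lay on the same strand within 16 members, and 2 further hairpins bordered Gm27019. The sequences below (RefSeq, GRCm38.p6) are examples picked after the values were seen, and the list is not ordered by level: Gm16066, 2610307P16Rik and Gm2044, whose microRNAs are not printed, were more abundant than Gm4258.
mmu-miR-29a-3p: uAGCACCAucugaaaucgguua
mmu-miR-29b-3p: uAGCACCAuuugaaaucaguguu
mmu-miR-30c-5p: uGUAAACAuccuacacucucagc
mmu-miR-101a-3p: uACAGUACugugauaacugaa
mmu-miR-125b-5p: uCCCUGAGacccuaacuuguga
mmu-miR-181a-5p: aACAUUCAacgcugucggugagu
mmu-miR-181b-5p: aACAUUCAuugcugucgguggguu
The miR-29 pair, known for repressing collagens and other matrix genes, shared the seed AGCACCA beside Gm27019. The miR-181 pair shared ACAUUCA within Gm4258. The microRNAs themselves were not measured in the files used here.

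The name "far from coding genes" held only against the rows of the table. The table listed 8969 coding genes, and 8485 of the 21900 coding genes of RefSeq had a symbol in it. Against RefSeq, 1297 members (43.8%) overlapped a coding gene, 643 (21.7%) had one within 50 kb without overlap, and 1022 (34.5%) had none within 50 kb. The overlapping members touched 840 coding genes, 5 of which had an mRNA row placed elsewhere, and 1020 of these members lay wholly inside the gene. No exon annotation was used here, so whether they lie in introns or exons is not stated. The build fits: of 1128 members with a symbol in RefSeq, 1099 (97.4%) overlapped the RefSeq span by at least 50% of the shorter one.

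The distance to the nearest listed mRNA had a median of 159 kb, with quartiles of 88.8 and 322 kb. It passed 100 kb for 2051 members, 500 kb for 431 and 1000 kb for 132. A greater distance did not mean fewer overlaps with RefSeq coding genes. The share overlapping one was 45.0% at 50 to 100 kb, 43.4% at 100 to 200 kb, 39.9% at 200 to 500 kb and 49.2% beyond. Levels were lower at greater distance. Heart medians over the same ranges were 1.91 to 2.33, 1.45 to 1.88, 0.675 to 0.945 and 0.503 to 0.762 FPKM. The 5 farthest members were all on chromosome Y, where the table listed 2 coding genes and 13 of 14 Gm and Rik lncRNAs (92.9%) were members. The farthest, Gm29650 (chrY:1048393-1049134), lay inside Eif2s3y, a translation initiation factor gene that has no row in the table used here. Its level was 12.1, 6.96 and 7.99 FPKM in the Sham hearts and 13.4, 6.23 and 7.45 FPKM in the I/R hearts. The other 4 farthest (Gm28955, Gm21723, Gm28786 and Gm29497) had at most 3 recovered reads per group, which are the smallest numbers that fit their FPKM. On the autosomes the share of Gm and Rik lncRNAs that were members ran from 22.9% on chromosome 17 to 47.2% on chromosome 10.

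At the edge of the rule, Gm49165, Gm45425 and Gm45824 lay 50096, 50118 and 50122 bp from a listed mRNA and were in. Gm38339, 2610012C04Rik and Gm13657 lay 49905, 49893 and 49871 bp away and were out. Mean levels were 0.264, 2.76 and 0.286 FPKM in Sham hearts for the 3 inside the set. They were 0.704, 12.7 and 5.88 FPKM for the 3 outside it.

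FPKM scale fragments by transcript length and library total. The totals behind the lncRNA values were 2025331 to 2792592 reads, and members held 8.83% to 9.28% of them in each heart. Ventricular cardiomyocyte markers (10 of 12 with a row) summed to 9687 to 10551 FPKM per heart. Neutrophil (1 of 3 with a row), lymphocyte (2 of 3), adipocyte (1 of 3) and lung (1 of 2) markers each summed to at most 1.05 FPKM. With so few markers listed, these low sums do not show that such cells were absent. Fibroblast markers (7 of 7 with a row) summed to 212 to 289 FPKM in Sham and 298 to 337 FPKM in I/R hearts, and macrophage markers (4 of 6 with a row) to 885 to 1064 and 1096 to 1191 FPKM. Those 2 sums did not overlap between the groups, while 7.1% of all features tested had all I/R hearts above all Sham hearts. The sums of every other cell type overlapped. Among them were endothelial markers (4 of 6 with a row), at 96.5 to 125 FPKM in Sham and 115 to 145 FPKM in I/R hearts. The part of cell types in the differences between groups given here was not tested. Fewer cells of a type and less RNA per cell cannot be told apart in whole hearts. The markers of atrial cardiomyocytes (4 of 4 with a row) summed to 330 to 722 FPKM in Sham and 466 to 953 FPKM in I/R hearts.

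Most members were scarce, and their level went with the presence of an unlisted coding gene at the same place. The median member stood at 1.20 to 1.51 FPKM across the 6 hearts. In all hearts together, 1211 members (40.9%) had no more than 10 recovered reads. Members overlapping a RefSeq coding gene had medians of 9.69 to 11.5 FPKM. Those with a coding gene within 50 kb had 0.522 to 0.747 FPKM, and those with none within 50 kb had 0.172 to 0.387 FPKM. In every heart the first of these 3 medians was the highest and the last the lowest. For comparison, Gm and Rik lncRNAs overlapping a listed mRNA had medians of 12.2 to 13.5 FPKM. The split was not particular to the members. Among Gm and Rik lncRNAs with a listed mRNA within 50 kb, those overlapping a RefSeq coding gene had medians of 14.5 to 16.8 FPKM. Those overlapping none had 0.968 to 1.24 FPKM. Sets of lncRNAs are not replicates, so these medians are a description with no test. No strand setting of the authors' counting is given, so reads of an overlapped gene and of the lncRNA on it cannot be told apart.

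**Figure D1:**
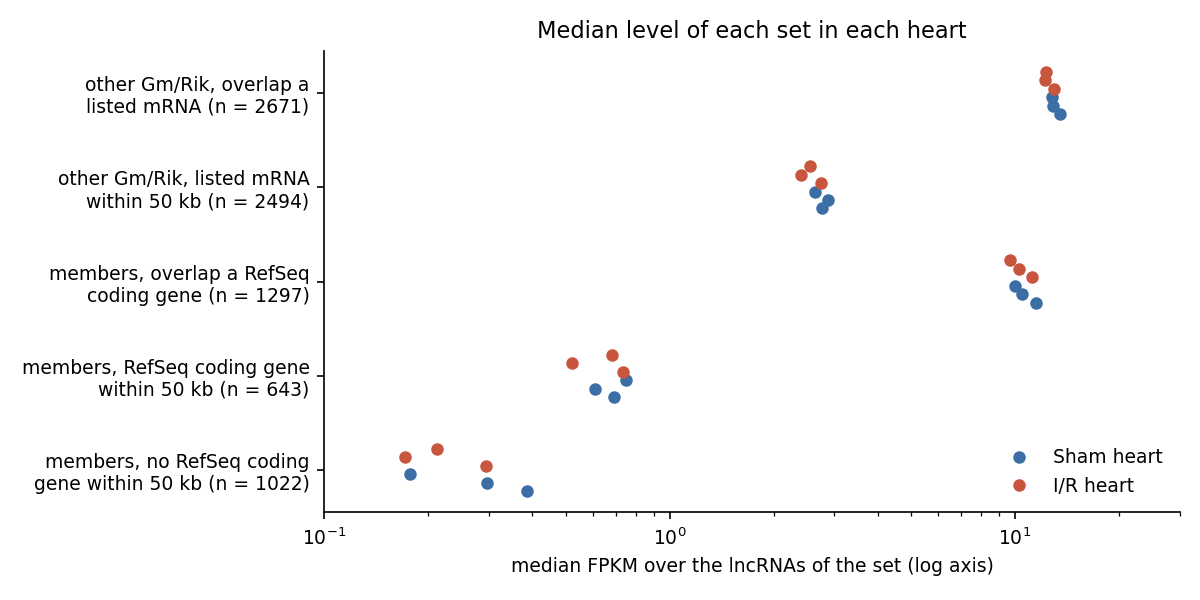
Median FPKM of each set of lncRNAs (log axis), 1 point per heart, Sham in blue and I/R in red. Members that overlap a RefSeq coding gene sit at 9.69 to 11.5 FPKM in every heart, and members with none within 50 kb sit at 0.172 to 0.387 FPKM.

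The recovered length went with the same split. A length equal to the whole span, which marks a single exon, was found for 42.9% of members overlapping a RefSeq coding gene. It was found for 17.9% of those with one within 50 kb and 13.7% of those with none. Lengths are the smallest that fit, so a single-exon member with few reads can come out shorter than its span. Members with at most 10 reads made up 20.5%, 48.8% and 61.7% of these 3 sets. The part of read number in this split was not tested. Strand was known for the coding gene of 1036 overlapping members. On the same strand as the gene (499 members) 71.5% had a recovered length equal to the span, and on the opposite strand (537 members) 17.7% did. Levels of the 2 strand classes were close, with heart medians of 8.55 to 9.86 FPKM on the same strand and 10.3 to 11.9 FPKM on the opposite one. Members also lay in groups: 1439 of them were within 50 kb of another member, in 529 groups of up to 11.

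Of the 50 most abundant members, 41 overlapped a RefSeq coding gene. Among the 10 most abundant, only Gm13833 and Gm44386 overlapped none. Gm17197 (chr19:56364262-56366241), antisense and inside Nrap, an actin-anchoring protein of the intercalated disc, had 1176, 1605 and 1348 FPKM in Sham and 1351, 1827 and 2165 FPKM in I/R hearts. The groups overlapped, with a log2 change of 0.36 ± 0.19 (SE, n = 3 per group) that ran from 0.20 to 0.54 when single hearts were left out. Gm20647, antisense to Corin, the protease that activates atrial natriuretic peptide, had 1383, 1143 and 1276 FPKM in Sham and 1052, 1170 and 1118 FPKM in I/R hearts. These also overlapped (log2 change -0.18 ± 0.09).

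D830005E20Rik (chr10:33222345-33256418) lies inside Trdn, the gene of triadin in the calcium release complex of the sarcoplasmic reticulum. It had 761, 731 and 669 FPKM in Sham and 635, 488 and 583 FPKM in I/R hearts. All I/R hearts were below all Sham hearts, with a log2 change of -0.35 ± 0.12 and a limma adjusted p of 0.498. Gm44386, 8.21 kb from Pcbp1, had 715, 735 and 832 FPKM in Sham and 703, 599 and 693 FPKM in I/R hearts, again with no overlap (log2 change -0.19 ± 0.10, limma adjusted p 0.652). Gm29233, inside Thbs1, the gene of the matrix glycoprotein thrombospondin, had 456, 1193 and 703 FPKM in Sham and 865, 2396 and 1754 FPKM in I/R hearts. Its log2 change was 1.08 ± 0.46, but Sham replicate 2 was above I/R replicate 1, and the limma adjusted p was 0.591.

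The remaining abundant members moved little or varied between hearts. Gm14493, antisense and inside Mid1ip1, ranged from 764 to 1279 FPKM in Sham and from 709 to 1898 FPKM in I/R hearts. Its log2 change of 0.24 ± 0.37 took the other sign without I/R replicate 3 (-0.06). Gm19918, across one end of Fam20b, a xylose kinase of proteoglycan synthesis, was the steadiest, at 719 ± 19.4 FPKM in Sham and 703 ± 28.4 FPKM in I/R hearts (SD, n = 3). Gm10129, antisense across an end of Dsp, the gene of the desmosome protein desmoplakin, had 516 ± 26.5 and 526 ± 64.3 FPKM.

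**Figure D2:**
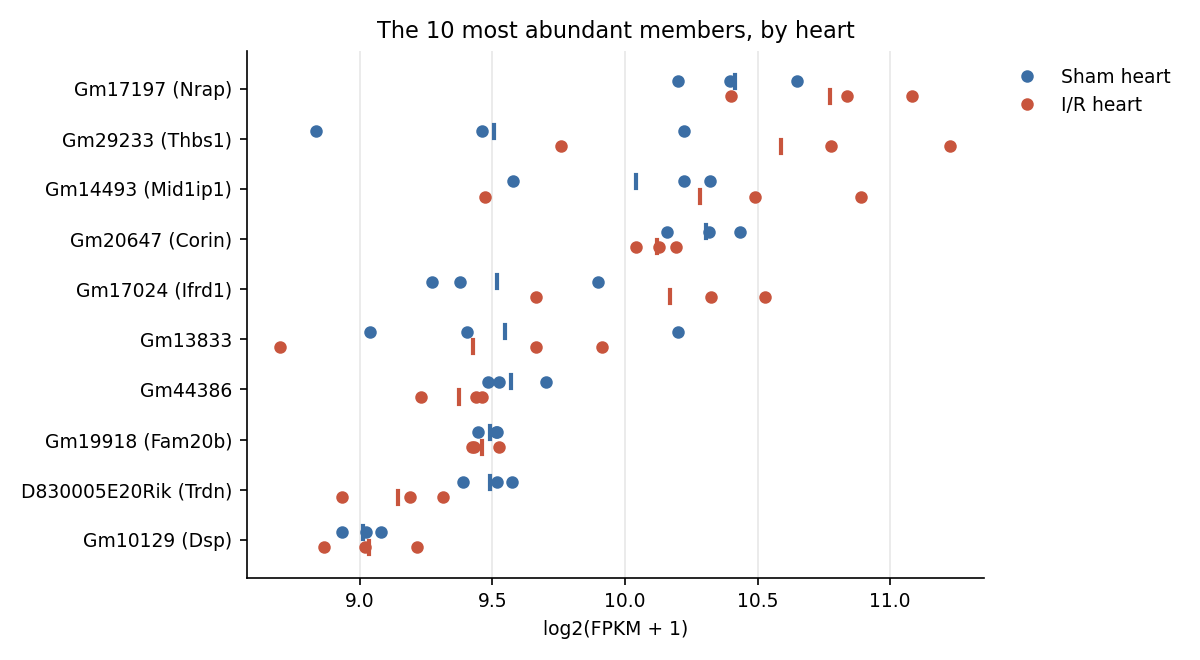
The 10 most abundant members, log2(FPKM + 1) in each heart, with a bar at each group's mean and the overlapped RefSeq coding gene in brackets. D830005E20Rik and Gm44386 have all I/R hearts below all Sham hearts, and Gm29233 ranges from 456 to 2396 FPKM.

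Whether any of these lncRNAs differed after cardioplegic arrest and reperfusion was tested next. No member changed at an adjusted p under 0.05: 0 of 1845 tested, where 0.0% of all 12114 features were called (limma, smallest adjusted p 0.385). The other 1117 members were too low to test, with a mean under 0.5 FPKM. At an unadjusted limma p under 0.05, 85 members were higher in I/R hearts (4.61%, against 4.23% of all features tested) and 119 were lower (6.45%, against 4.21%). Among all lncRNAs tested the shares were 4.81% higher and 6.02% lower, near those of the members. With each heart centred on its lncRNA median, the split became 113 higher and 79 lower, so which direction held more depended on the scaling. All I/R hearts were above all Sham hearts for 90 members (4.88%, against 7.1% of all features and 5.87% of lncRNAs), and all below for 153 (8.29%, against 6.57% and 7.61%). The median log2 change was -0.04 over the members, -0.03 over all lncRNAs tested and 0.02 over coding genes.

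The counts by place were not tested against each other. Members overlapping a RefSeq coding gene gave 52 higher and 68 lower of 1037 tested (5.01% and 6.56%, against 4.23% and 4.21% of all features and 4.81% and 6.02% of lncRNAs). Those with a coding gene within 50 kb gave 11 and 26 of 359 (3.06% and 7.24%), and those with none gave 22 and 25 of 449 (4.90% and 5.57%). Members on the same strand as the overlapped gene gave 17 and 22 of 401, and those on the opposite strand 25 and 30 of 427. The shares to set beside these counts are again 4.23% and 4.21% of all features and 4.81% and 6.02% of lncRNAs. A difference between the strands was not tested.

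**Figure D3:**
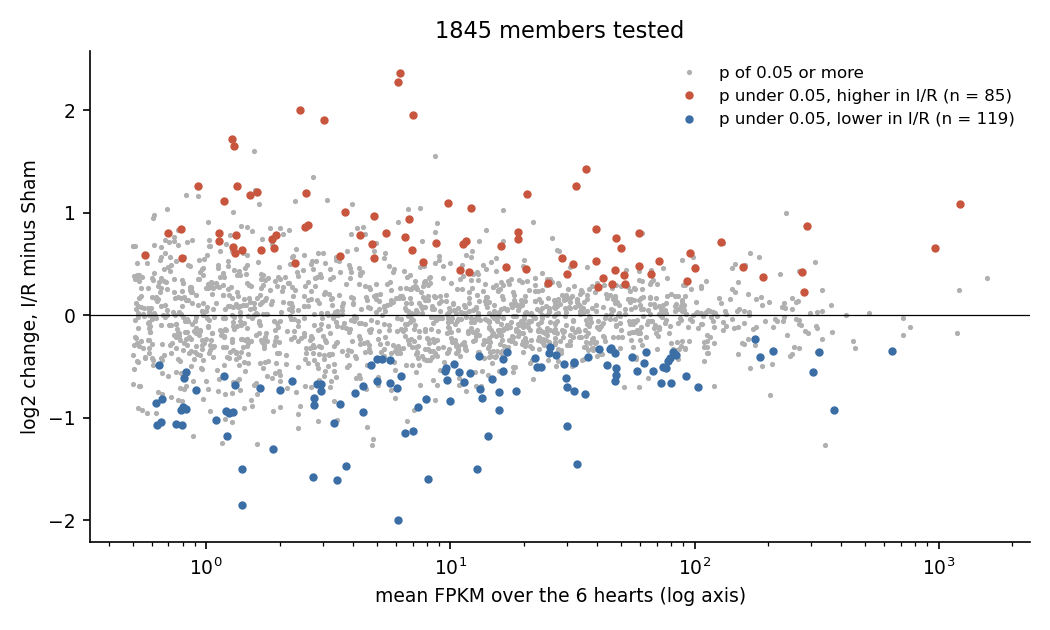
Log2 change (I/R minus Sham) against mean FPKM (log axis) for the 1845 members tested, 1 point each. Members at an unadjusted p under 0.05, 85 higher in red and 119 lower in blue, lie at all levels, and none passed the adjusted threshold.

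Of the 8 members with the smallest p in the higher direction, Gm34983 was the only one that overlapped no RefSeq coding gene. 9530052E02Rik (chr8:11007850-11054541) runs antisense across an end of Irs2, the insulin receptor substrate. It had 82.6, 112 and 97.7 FPKM in Sham and 152, 165 and 161 FPKM in I/R hearts. The groups stood well apart, at a log2 change of 0.71 ± 0.13 (unadjusted limma p 0.00092, adjusted p 0.386). Its change stayed between 0.60 and 0.82 when any 1 heart was left out.

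Ifrd1, the gene of a transcriptional co-regulator, carried 2 members that were both higher in I/R hearts. Gm7008 (chr12:40222758-40229184), antisense across an end of the gene, had 181, 242 and 186 FPKM in Sham and 282, 446 and 398 FPKM in I/R hearts, without overlap. Its log2 change was 0.87 ± 0.20 (unadjusted limma p 0.0031, adjusted p 0.386). Gm17024, inside Ifrd1 on its own strand and among the 10 most abundant, had 618, 954 and 664 FPKM in Sham and 810, 1474 and 1281 FPKM in I/R hearts. Here Sham replicate 2 was above I/R replicate 1 (log2 change 0.65 ± 0.26, adjusted limma p 0.559). Ifrd1 itself has no row in the table used here, so its mRNA was not compared.

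Other members higher in I/R hearts had fewer reads. Gm15327, antisense and inside Map3k1, a kinase that feeds the JNK pathway, had 3.83, 2.37 and 1.06 FPKM in Sham and 12.6, 13.2 and 9.11 FPKM in I/R hearts, from 9 and 39 reads. Gm11659, inside Mapt, the gene of the microtubule protein tau, had 9.99, 13.5 and 12.7 FPKM against 25.2, 39.7 and 22.8 FPKM (42 and 99 reads). Gm37936, inside Nckap5, had 7.31, 5.58 and 4.86 FPKM against 12.6, 15.4 and 12.9 FPKM. All 3 were without overlap between groups, with log2 changes of 1.95 ± 0.34, 1.18 ± 0.23 and 1.09 ± 0.19.

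Gm34983, 192 kb from Dusp6, the phosphatase that switches off ERK, had 0 reads in the 3 Sham hearts and 9 in the 3 I/R hearts. With a floor of 3 reads over the Sham group, and the I/R reads taken as exact, it was 3.15-fold higher. Gm14808, whose promoter is printed above, had 7 reads in I/R hearts, 5 of them in I/R replicate 2, and 0 in Sham hearts. It was 2.45-fold higher on the same floor. Gm49003 (Enox1) had 1 and 11 reads, and Gm45310 (Sergef) 4 and 21. Counts this low leave the size of the change uncertain. The floors cover only the counting error of the group with 0 reads, so these ratios are not lower bounds.

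Of the 8 members with the smallest p in the lower direction, 5 overlapped no RefSeq coding gene. Gm27010 (chr14:61625926-61627337), 13.1 kb from Kcnrg, had 88.4, 86.4 and 87.0 FPKM in Sham and 65.4, 62.0 and 55.7 FPKM in I/R hearts. Every Sham heart was above every I/R heart, and the Sham hearts spanned 86.4 to 88.4 FPKM (log2 change -0.51 ± 0.10, unadjusted limma p 0.0015, adjusted p 0.386). Gm14532 (chr6:31356743-31372369), 26.5 kb from Mkln1, had 119, 93.9 and 120 FPKM in Sham and 71.3, 73.1 and 74.7 FPKM in I/R hearts (log2 change -0.59 ± 0.12). Gm10847, antisense and inside Lrch1, had 89.6, 82.4 and 96.8 FPKM against 63.8, 48.3 and 58.2 FPKM (log2 change -0.66 ± 0.13). Both again showed no overlap between groups.

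Gm35041, 10.1 kb from Max, the partner of the Myc transcription factors, had 112, 117 and 156 FPKM in Sham and 66.8, 76.1 and 91.9 FPKM in I/R hearts. Its groups did not overlap (log2 change -0.70 ± 0.17, unadjusted limma p 0.0049, adjusted p 0.388). B430203G13Rik, on the strand of Gm9222 and inside it, had 21.0 ± 2.38 FPKM in Sham and 10.7 ± 2.16 FPKM in I/R hearts (SD, n = 3). Gm45592, 1.36 kb from Ankrd10, had 16.6 ± 0.808 and 9.77 ± 1.04 FPKM, and Gm43815, inside Nfxl1, 17.4 ± 2.54 and 9.46 ± 1.19 FPKM. Reads were few for Gm11579, 3.31 kb from Cd28, the gene of a co-stimulatory receptor on T cells (16 reads in Sham, 2 in I/R). They were also few for Gm43464 (7 and 0). With a floor of 3 reads over the I/R group, and the Sham reads taken as exact, Gm43464 was 2.22-fold lower.

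**Figure D4:**
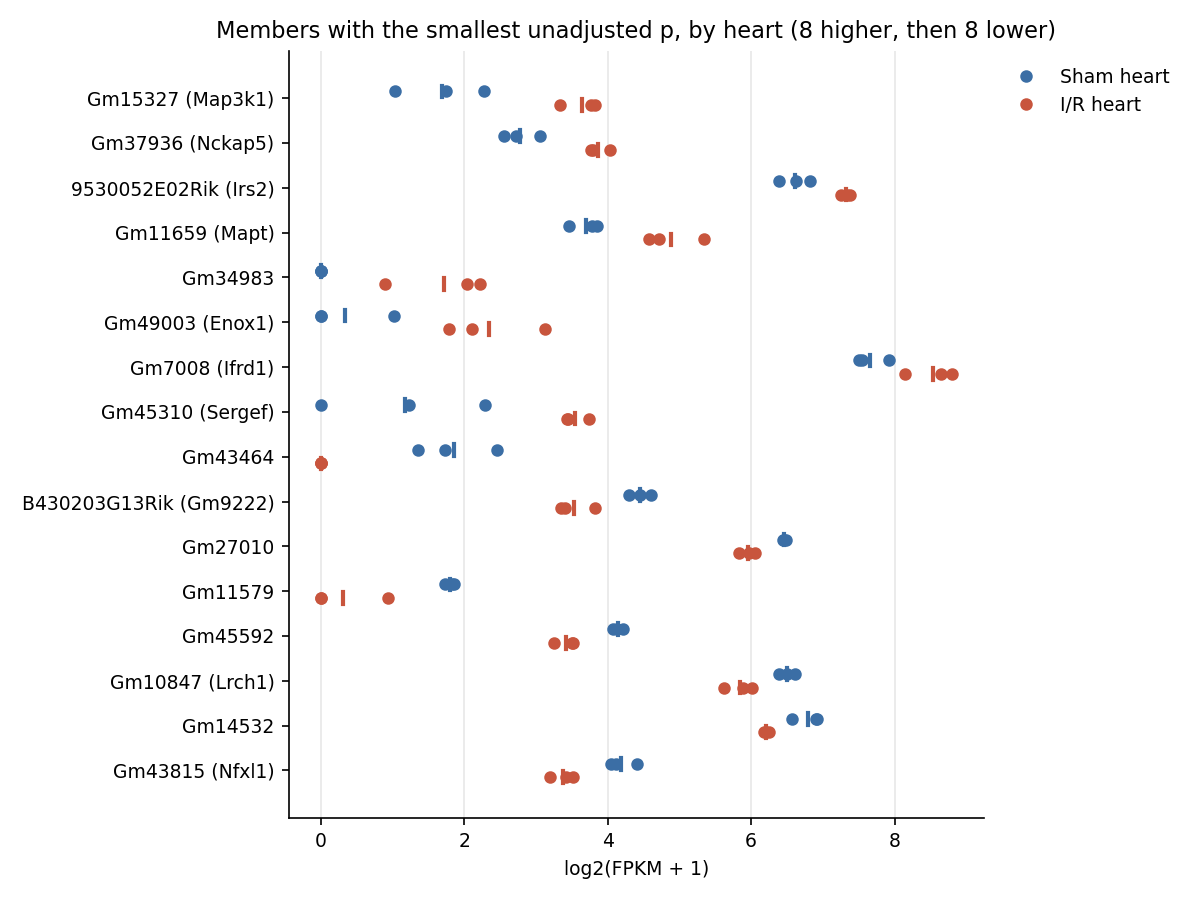
The 8 members with the smallest unadjusted p in each direction, log2(FPKM + 1) in each heart, with a bar at each group's mean. They were picked for this difference, so the gap between colours is a selection; 9530052E02Rik, Gm7008, Gm27010, Gm10847 and Gm14532 are those with a mean over 50 FPKM.

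The members that are far from coding genes in RefSeq too include a stretch of chromosome 6 near the Mir29 hairpins. Gm27019 (chr6:31063092-31063495, minus strand) overlaps the end of the Mir29b-1 hairpin, with Mir29a 345 bp away. Gm13833, 5330406M23Rik and Gm37728 follow up to position 31147419, and the nearest coding gene of any of the 4 is Klf14, 104 to 186 kb away. Gm13833 had 525, 677 and 1174 FPKM in Sham and 415, 811 and 962 FPKM in I/R hearts. 5330406M23Rik, on the opposite strand, had 269, 341 and 544 FPKM and 197, 388 and 454 FPKM. The order of the hearts was the same for both members, from I/R replicate 1 as the lowest to Sham replicate 3 as the highest, and the groups overlapped.

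Gm27019 had 107, 115 and 213 FPKM in Sham and 115, 105 and 238 FPKM in I/R hearts, and Gm37728 had 204, 279 and 277 FPKM and 195, 183 and 298 FPKM. Their log2 changes were 0.04 ± 0.38 and -0.19 ± 0.22, those of Gm13833 and 5330406M23Rik -0.12 ± 0.39 and -0.17 ± 0.37. None of the 4 separated the groups, and the sign for Gm13833, 5330406M23Rik and Gm27019 turned when single hearts were left out, while that of Gm37728 ran from -0.41 to -0.06. Farther along the chromosome, 2210408F21Rik (chr6:31220351-31337404, 61.4 kb from Mkln1) had 355, 325 and 417 FPKM in Sham and 290, 274 and 286 FPKM in I/R hearts. All its I/R hearts were below all Sham hearts (log2 change -0.36 ± 0.11, unadjusted limma p 0.013, adjusted p 0.468). Gm14532, described above, lies just beyond it on the same strand.

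Members that hold a microRNA hairpin differed widely in level, with means over the 6 hearts from 0.0233 FPKM (Gm28653) to 269 FPKM (Gm27028). Gm28653, which spans the muscle microRNA hairpins Mir206 and Mir133b, was read in 1 heart only (0.14 FPKM in Sham replicate 2). Gm27028, 1 exon around Mir30c-2, was the highest of them, at 258, 328 and 304 FPKM in Sham and 182, 229 and 313 FPKM in I/R hearts. E130102H24Rik, the host of Mir101a, had 60.4, 46.3 and 56.6 FPKM in Sham and 115, 57.7 and 60.8 FPKM in I/R hearts. Only I/R replicate 1 stood out there, and both these members overlapped between groups. Gm28119, around Mir125b-1, had 38.4 ± 7.30 and 48.7 ± 26.9 FPKM (SD, n = 3), and Gm4258, around Mir181a-1 and Mir181b-1, 15.5, 8.78 and 8.70 FPKM in Sham and 10.4, 8.82 and 7.87 FPKM in I/R hearts.

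Of the 16, 11 were tested and 1 had an unadjusted limma p under 0.05, in the lower direction, where 4.21% of all features tested had one, so the count is near the background. That member, A330076H08Rik (chr7:61930137-61982358), which holds Mir344-2, had 4.28, 3.82 and 3.34 FPKM in Sham and 2.16, 0.767 and 2.20 FPKM in I/R hearts. Its groups did not overlap (log2 change -0.88 ± 0.28, adjusted limma p 0.495). A230057D06Rik, next to it on the same strand and holding the other Mir344 hairpins, had 1.57 ± 0.487 and 1.66 ± 0.810 FPKM.

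Some coding genes without a row in the table carried many members. RefSeq coding genes with 2 or more members numbered 226. Kcnip4, a potassium channel-interacting protein gene, had the most, 21, of which 3 were abundant enough to test. Pcdh7, a protocadherin gene, had 14, all tested: 13 lay on its own plus strand and 1, 4932441J04Rik, on the minus strand. The 13 all had negative log2 changes, from -0.45 ± 0.19 (Gm42482) to -0.03 ± 0.30 (Gm43715), and the minus-strand member had 0.10 ± 0.09. For Gm42481, the values were 109, 90.3 and 87.1 FPKM in Sham and 67.8, 78.1 and 70.5 FPKM in I/R hearts. It was 1 of 3 in the gene with all I/R hearts below all Sham hearts, against 6.57% of all features and 7.61% of lncRNAs tested, in a gene picked after its values were seen. Members of 1 gene are not independent of each other. With hearts centred on their lncRNA medians 11 of the 14 were negative, and 11 to 13 were with any 1 heart left out.

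Other genes showed members moving to one side without passing the test. All 5 members in Fli1, a transcription factor gene of endothelial and blood cells, had negative changes (median log2 change -0.31), and Gm38292 had 45.7, 55.0 and 41.2 FPKM in Sham and 39.6, 29.1 and 39.7 FPKM in I/R hearts. Both members antisense to Cald1, the gene of the actin-binding protein caldesmon, were higher in all I/R hearts than in any Sham heart, as were 7.1% of all features tested. Gm13861 had 17.4, 23.9 and 27.9 FPKM against 31.9, 28.8 and 42.1 FPKM, and Gm14547 had 35.7, 35.8 and 25.3 FPKM against 46.3, 40.5 and 53.9 FPKM. All 6 members in Lhfp had positive changes, with a median log2 change of 0.30, and the groups overlapped in each of them. Leaving out 1 heart moved that median to 0.18 (without Sham replicate 3) or 0.17 (without I/R replicate 2), and moved the Fli1 median to -0.10 without Sham replicate 2 and to -0.18 once I/R replicate 1 was dropped. Centring left the signs in these 3 genes as they were, while 4 of the 5 in Fli1 were negative without Sham replicate 2 or without I/R replicate 1. These genes were chosen after their values were seen, and the counts describe these 6 hearts only.

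Ppargc1a, the gene of the PGC-1α coactivator that drives mitochondrial biogenesis, held 9 members, and 4 of them were abundant. These 4 varied widely between hearts. Gm43605 (chr5:51510868-51514293) had 442, 508 and 369 FPKM in Sham and 509, 73.4 and 154 FPKM in I/R hearts. Gm42613, the only member of the 9 on the strand opposite to the gene, had 174, 347 and 175 FPKM and 357, 47.4 and 122 FPKM. In both, I/R replicate 1 was the highest heart and I/R replicate 2 the lowest. The nearby Gm42614 ran otherwise, with 79.3, 290 and 143 FPKM in Sham and 248, 276 and 391 FPKM in I/R hearts, and Gm42615 had 128, 439 and 237 FPKM and 422, 224 and 422 FPKM. Every group pair overlapped, and log2 changes ran from -1.27 ± 0.63 (Gm43605) to 1.00 ± 0.44 (Gm42614). Members with a mean of at least 50 FPKM (296 members) had a median SD of 0.20 on the log2 scale in either group.

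**Figure D5:**
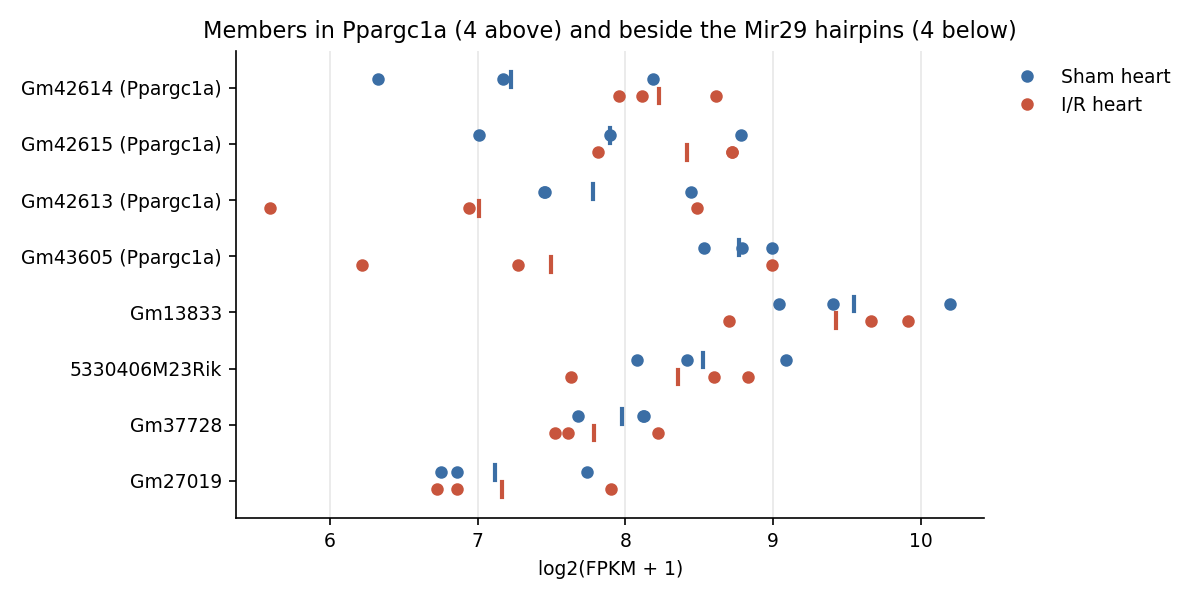
Log2(FPKM + 1) in each heart for the 4 abundant members in Ppargc1a (top) and the 4 members beside the Mir29 hairpins (bottom), with a bar at each group's mean. Gm43605 and Gm42613 spread widely among the I/R hearts, and no member separates the groups.

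Spread between hearts was widest at low read numbers. 1700021F13Rik, inside Tbx5, a heart transcription factor gene, had 0.764, 2.36 and 0 FPKM in Sham and 0, 17.2 and 0 FPKM in I/R hearts, so that 1 heart held nearly all of its reads. Gm16095, inside Clmp, had 1.42, 0 and 19.5 FPKM in Sham and 8.93, 15.2 and 6.73 FPKM in I/R hearts. Gm26936, Gm13200 and Gm33682 completed the 5 with the widest spread, each between 0 and at most 15.3 FPKM. Members with a mean of at least 2 FPKM (1335 members) had a median SD of 0.29 on the log2 scale in both groups.

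Among members with no RefSeq coding gene within 50 kb, the differences seen were mostly small in reads. Gm48397, 100 kb from Gas1, had 0.489, 0.504 and 0.674 FPKM in Sham and 1.70, 1.97 and 1.45 FPKM in I/R hearts, from 12 and 36 reads. Gm37820 had 1.53 ± 0.419 and 3.57 ± 0.403 FPKM (SD, n = 3), and Gm49212 1.89 ± 2.18 and 10.3 ± 1.70 FPKM. In the other direction, Gm48584, 159 kb from Trib2, had 26.8, 15.3 and 17.8 FPKM in Sham and 5.01, 8.53 and 11.8 FPKM in I/R hearts, from 55 and 22 reads. Gm37466 had 13.0 ± 2.17 and 6.91 ± 1.93 FPKM, and Gm47897 3.06 ± 1.11 and 0.686 ± 0.595 FPKM. None of these 6 overlapped between groups, and none passed the adjusted threshold (limma, adjusted p from 0.388 to 0.442). They were picked for a small unadjusted p, so the gap between groups is a selection. Gm34983, described above, and Gm36945 (7 reads in Sham, 1 in I/R) were picked in the same way. Gm36827, by contrast, lay 502 kb from any RefSeq coding gene and was abundant, at 392, 246 and 214 FPKM in Sham and 304, 272 and 203 FPKM in I/R hearts, with overlapping groups.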

How the data were processed

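Poly(A) RNA of 6 hearts was sequenced, per the labels' protocols. The values are FPKM per transcript as deposited by the authors. Per the submitters' processing notes, the tools were HISAT2 2.1.0, HTSeq 0.10.0, fastp 0.23.0 and bcl2fastq 2.19.1.403, with the builds GRCm39, GRCm38 and mm10 named without a role. No source used here gives the annotation or the strand setting. The table has 21198 rows (40 repeats dropped), and 6 ids named in the rule were left out, 1 of which met it. Reads, exonic lengths and library totals were recovered from the FPKM (within 0.001 of a whole number, lengths from 30 bases), for all 2962 members, and are the smallest whole numbers that fit.

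FPKM of mRNA rows were summed per gene. Features with a mean of at least 0.5 FPKM (7073 lncRNAs, 5041 coding genes) were fitted as log2(FPKM + 1) with limma 3.58.1 in R 4.3.3 (group only, variance trend, two-sided, Benjamini-Hochberg over all 12114). Log2 changes are on that scale, which understates low values. SE is limma's. P-values measure the spread between these samples. Coding genes, promoters and microRNAs came from RefSeq tables (GRCm38.p6). Python 3.11.15, numpy 2.4.6, pandas 2.3.3 and matplotlib 3.10.9 were used. Fits were tested on simulated data.

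The members and lists were chosen with earlier results of these data known. Named members are the 10 most abundant, the 8 per direction with the smallest p, the 5 farthest, 3 on either side of 50 kb and the 5 with the widest spread (mean of at least 2 FPKM). Those in Ppargc1a, Pcdh7, Fli1, Cald1, Lhfp and Kcnip4, those holding hairpins, those by the Mir29 hairpins and those far from RefSeq coding genes were added after their values were seen. Alternatives were other pseudocounts, filters, scalings, distances, a replicate block, voom on recovered reads, lncRNAs alone and each heart left out.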

Additional observations from a re-analysis of the deposited data

How the results depend on the processing

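No member passed the adjusted threshold under any alternative run. The smallest adjusted p of a member was 0.18, from limma voom on recovered reads, against 0.385, and ran from 0.25 to 0.602 when single hearts were left out. At an unadjusted p under 0.05, the 85 higher and 119 lower members became 113 and 79 after centring on the lncRNA median, 62 and 77 with lncRNAs fitted alone, and 68 and 89 with voom. With no listed mRNA within 100 kb, 61 were higher and 77 lower of 1213 tested. With no RefSeq coding gene within 50 kb either, 1022 members remained. Of these, 449 were tested, with 22 higher and 25 lower (4.90% and 5.57%). With no overlap with a RefSeq coding gene, added after seeing the data, 1665 members remained. Of these, 808 were tested, with 33 higher and 51 lower. Over all features tested, 4.23% were higher and 4.21% lower. The sets limited by distance or overlap test fewer members, and the cause of the other shifts was not tested. Leaving out 1 heart gave 58 to 95 higher and 81 to 149 lower, with the fewest higher without Sham replicate 3.

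The labels do not say that replicate numbers pair the hearts. The correlations of same-numbered deviations were 0.125, 0.023 and 0.025, and those of differently numbered hearts ran from -0.125 to 0.104. With 3 hearts per group these values cannot settle whether hearts were paired. A replicate block gave 100 higher and 124 lower and 0 adjusted calls.

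Of 48 named members followed over 713 values, 13 values had the other sign. They were those of Gm14493 (-0.061 without I/R replicate 3), Gm13833 (0.20 without Sham replicate 3, 0.24 without I/R replicate 1), 5330406M23Rik (0.11 and 0.19 without the same hearts), Gm10129 (-0.02 without Sham replicate 1, -0.07 without I/R replicate 1), Gm36827 (0.16 without Sham replicate 1, 0.07 without I/R replicate 3), Gm27019 (-0.14 and -0.09 without Sham replicates 1 and 2, -0.33 without I/R replicate 3) and Gm19918 (0.036 after centring). Over single hearts left out, log2 changes ran from -0.38 to 0.24 for Gm13833, -0.41 to 0.19 for 5330406M23Rik, -0.07 to 0.10 for Gm10129, -0.06 to 0.65 for Gm14493, -0.28 to 0.16 for Gm36827, -0.33 to 0.35 for Gm27019, -2.0 to -0.63 for Gm43605, 0.55 to 1.5 for Gm42614, -0.24 to -0.12 for Gm44386, 0.20 to 0.54 for Gm17197 and -0.41 to -0.057 for Gm37728. The log2 changes of Gm42613 and Gm42615 ran from -1.5 to -0.072 and from 0.083 to 0.96. Those of Gm27028 and Gm19918 ran from -0.53 to -0.14 and from -0.066 to -0.014. Depth limits members with few reads: 40.9% had at most 10 recovered reads.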
